A study of Mus musculus with 8 samples.

Results

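MIR, L2 and hAT-Charlie are old transposable elements that no longer move in the mouse. The members are the windows of the deposited repeat table whose class is exactly MIR, L2 or hAT-Charlie and whose position occurs in a single row. They number 2144 of 243007 rows, with 778 for MIR, 401 for L2 and 965 for hAT-Charlie. Overlapping or touching windows of a class on a strand were merged into 701 MIR loci, 356 L2 loci and 892 hAT-Charlie loci, since such windows hold largely the same reads. The largest merged loci held 15, 12 and 12 windows. A locus is represented below by its window with the most counts.

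The RNA came from dissociated dorsal root ganglia of mice at lumbar levels L4-L6, taken 3 days after a crush of 1 sciatic nerve. Ganglia of the injured nerve gave 4 libraries (injury 1 to 4) and naive ganglia of the same 4 mice gave 4 libraries (naive 1 to 4). The sources used here do not give the strain, genotype, sex or age of the mice. Libraries were made with QuantSeq 3′ mRNA-seq REV, a stranded kit whose reads begin at the poly(A) tail, so that a window with counts lies at or near an RNA 3′ end or a run of A bases.

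MIR is a SINE that arose from a tRNA, L2 is a LINE, and hAT-Charlie is a DNA transposon that moved by cut and paste. Many copies of these classes were fixed in early mammals and survive as short, diverged pieces, often inside introns and 3′ UTRs. Members were taken by class name, and the age of each copy was not checked. Some pieces supply splice sites, microRNA hairpins or polyadenylation signals to the gene around them. B2, used below as the class set beside them, is a younger rodent SINE that RNA polymerase III transcribes from its own promoter.

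Library totals in the gene table were 16539644 to 28950551 counts for injury and 17459084 to 22092535 counts for naive. Values are given as CPM, counts scaled to these totals. The labels were checked on injury response genes. Atf3, a transcription factor of injured neurons, averaged 320.4 ± 29.6 CPM in injury and 62.07 ± 8.74 CPM in naive ganglia (SD, n = 4 each), and Sprr1a, a small proline-rich protein, averaged 607.5 ± 112 CPM in injury and 1.131 ± 0.753 CPM in naive ganglia. Of 9 sensory neuron markers tested, 6 were lower and 1 higher after injury. All 10 on the list were in the table, with summed levels of 11769 to 13545 CPM in injury and 11972 to 12413 CPM in naive ganglia. Of 5 macrophage markers in the table, 4 were higher after injury, and their summed level was 21.79 to 34.71 CPM in injury and 5.554 to 10.82 CPM in naive ganglia. None of these markers was at 0 in all libraries, and the part of this change in the repeat results was not tested. Injury 2 and injury 3 stood apart in base composition. The mean A+T content of annotated 3′ ends, weighted by counts, was 59.0% and 58.5% in these libraries, 59.6% and 59.7% in the other injury libraries, and 59.3% to 59.7% in naive libraries.

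The sequences below are from exonic loci among those with most counts or with the smallest p among the calls of each class, and show whether a polyadenylation signal stands there. They are 30 bases each, 5′ to 3′ on the transcript, from GENCODE vM21 transcripts on GRCm38, and capitals mark AATAAA or ATTAAA, the hexamers that recruit the cleavage and polyadenylation machinery. The L2 runs lie at chr17:35834802-35834831 (minus strand, Tubb5), chr4:126743769-126743798 (minus, Ncdn), chr11:116105759-116105788 (minus, Trim47), chr19:41600272-41600301 (minus, Slit1) and chr11:102401716-102401745 (plus, Rundc3a). The MIR runs lie at chr12:109571679-109571708 (plus, Meg3), chr12:109545277-109545306 (plus, a second Meg3 window), chr5:146734836-146734865 (minus, Usp12), chr9:108447645-108447674 (minus, Klhdc8b), chr4:148100650-148100679 (minus, Draxin) and chr19:46348207-46348236 (minus, 2310034G01Rik). The hAT-Charlie runs lie at chr8:126930681-126930710 (minus, Tomm20), chr7:119742185-119742214 (plus, Ppp1ccb) and chr5:116039854-116039883 (minus, Tmem233). All are in 3′ UTRs except the Meg3 and Ppp1ccb runs, which are in exons of noncoding transcripts.
L2, Tubb5: gcactcAATAAAtatttgtttgtggaatgt
L2, Ncdn: tgtgcacatgtggacactcAATAAAtgttt
L2, Trim47: cacacagtaggtgctcAATAAAcatttgtt
L2, Slit1: agtgccttgcacagataggcgcttAATAAA
L2, Rundc3a: ctcactgtgtgcttAATAAAtggacaaaga
MIR, Meg3: ggcctagtggctcatggtgctttcAATAAA
MIR, Meg3 second window: agcttccaggtttcagttcctttcacacct
MIR, Usp12: tataaatacaaaataatatctATTAAAgtt
MIR, Klhdc8b: ccagggagttttgatgtagaAATAAAaata
MIR, Draxin: ctgcagtaaagagcctgttcttccaactca
MIR, 2310034G01Rik: atctgtaaaacacataaagttaggtgttca
hAT-Charlie, Tomm20: gcaccttggcatttcaAATAAAcaccttca
hAT-Charlie, Ppp1ccb: ctgagaatggtttcagacttATTAAAtgca
hAT-Charlie, Tmem233: tttgcagtgtgcaaagcacgtgccaccggt

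All 5 printed L2 runs hold AATAAA, while the runs of Draxin, 2310034G01Rik, the second Meg3 window and Tmem233 hold neither hexamer. Both hexamers were searched on the transcript strand for each tested locus that lies in an exon. The search covered 50 bases from the first base of the window that represents the locus. Either of them stood in 26 of 27 L2 loci (96.3%), all of them as AATAAA, in 23 of 35 MIR loci (65.7%) and in 21 of 32 hAT-Charlie loci (65.6%). The share was 93.0% for B2, 73.1% for L1 and 20.9% for Alu loci in exons, and 53.3% over all 1314 exonic loci searched. The longer string CTCAATAAA, which contains AATAAA and was searched after the sequences were seen, stood in 15 of the 27 L2 loci (55.6%), in none of the MIR or hAT-Charlie loci, and in 5 of the 1287 exonic loci outside L2 (0.389%). A stretch with at least 12 A among 20 bases within 80 bases of the window's start, to which an oligo(dT) primer can anneal, was found in 18.5% of L2 loci, 34.3% of MIR loci and 37.5% of hAT-Charlie loci, against 68.1% of all exonic loci. That share was 94.3% for B2. Both searches ran along the annotated transcript and stopped at its end, so genomic bases past it were not read. The end came within 80 bases in most loci of each old class, so their A-rich shares rest on shorter stretches. The Tmem233 window has such a stretch. An annotated transcript end lay within 100 bases of 81.5% of the L2 loci, 65.7% of the MIR loci, 59.4% of the hAT-Charlie loci and 50.6% of all exonic loci. These matches describe letters and do not show that a hexamer is used.

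Most member loci held no counts. The share of loci at 0 in all 8 libraries was 54.4% for MIR, 56.7% for L2 and 57.6% for hAT-Charlie, close to the 55.3% of B2 loci. The counts sat in a few loci. A single locus held 27.1% of the MIR locus counts (in Meg3), 82.5% of the L2 locus counts (in Tubb5) and 59.8% of the hAT-Charlie locus counts (in Tmem233), and the top 10 loci held 89.6%, 96.9% and 82.3%. The locus with most B2 counts held 1.24% of its class.

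Counts followed 3′ UTRs much more than the loci did. Introns on the sense strand held 45.9% of MIR loci but 2.56% of MIR counts, 38.5% of L2 loci but 0.219% of L2 counts, and 47.0% of hAT-Charlie loci but 4.61% of hAT-Charlie counts. In contrast, 3′ UTRs held 11.4%, 19.4% and 7.96% of the loci of MIR, L2 and hAT-Charlie and 33.3%, 98.5% and 73.5% of their counts. Without the locus with most counts of each class the 3′ UTR shares of counts were 45.6%, 91.4% and 34.1%. For B2, 3′ UTRs held 0.665% of loci and 1.22% of counts, and loci with no gene on either strand held 45.1% of counts. Of the loci with enough counts to be tested, 36.9% of MIR, 65.8% of L2 and 43.9% of hAT-Charlie loci were in 3′ UTRs.

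**Figure D1:**
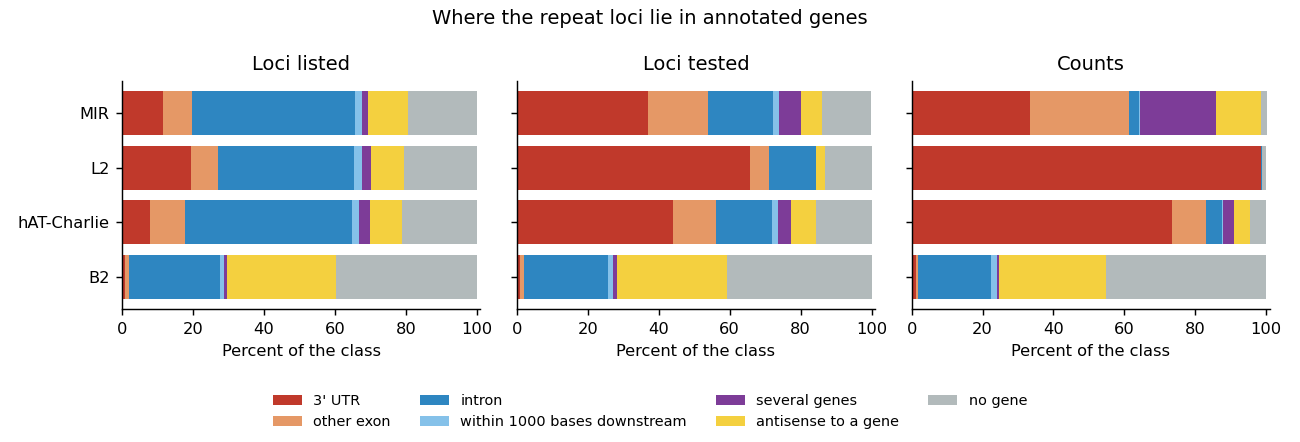
Stacked bars give the percent of listed loci, of tested loci and of counts that fall in each kind of annotated position (GENCODE vM21), for MIR, L2, hAT-Charlie and B2. Red 3′ UTR segments are short among loci and long among counts for the 3 old classes, with 98.5% of L2 counts, while B2 counts lie outside exons.

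The class sums asked whether counts in these repeat windows were higher or lower after injury. Counts in a window do not show that a transcript ends there. L2 windows summed to 39593, 45692, 45733 and 39917 CPM in injury 1 to 4, against 32646, 35506, 34385 and 34280 CPM in naive 1 to 4. Every injury library was above every naive library. The log2 difference was 0.32 (42734 ± 3440 CPM in injury and 34204 ± 1180 CPM in naive, SD, n = 4 each), and a two-sided exact permutation test over the 8 libraries gave p = 0.0286, the smallest that 4 against 4 allows, or 0.0429 adjusted over the 3 classes. Overlapping windows count a read repeatedly here, and with 1 window per locus the log2 difference was 0.26 with the same p. Without the Tubb5 locus it was −0.09 (1725 ± 151 CPM in injury and 1832 ± 67.5 CPM in naive, exact permutation p = 0.286), with overlapping groups.

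hAT-Charlie windows summed to 959.2, 953.9, 1017 and 971.9 CPM in injury 1 to 4, against 1259, 1251, 1251 and 1247 CPM in naive 1 to 4. All injury libraries were below all naive libraries. The log2 difference was −0.36 (975.6 ± 28.8 CPM in injury and 1252 ± 5.13 CPM in naive, exact permutation p = 0.0286, adjusted 0.0429), or −0.54 with 1 window per locus. Without the Tmem233 locus the difference over all windows was −0.06 (exact permutation p = 0.286). With 1 window per locus and without Tmem233, the hAT-Charlie sum was 309.8 ± 12.5 CPM in injury and 372.9 ± 9.53 CPM in naive, a log2 difference of −0.27 with no overlap between groups (exact permutation p = 0.0286, adjusted 0.0858).

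MIR windows summed to 4207, 3850, 3905 and 4354 CPM in injury 1 to 4, against 4165, 3736, 3983 and 3901 CPM in naive 1 to 4. The groups overlapped, and the log2 difference of 0.05 did not pass the test (exact permutation p = 0.400). With the same-numbered libraries taken as pairs, 4 pairs cannot give an exact p below 0.125, and the adjusted p for both L2 and hAT-Charlie was 0.188. In these bulk samples, fewer cells that use a transcript and less of it in each cell cannot be told apart.

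**Figure D2:**
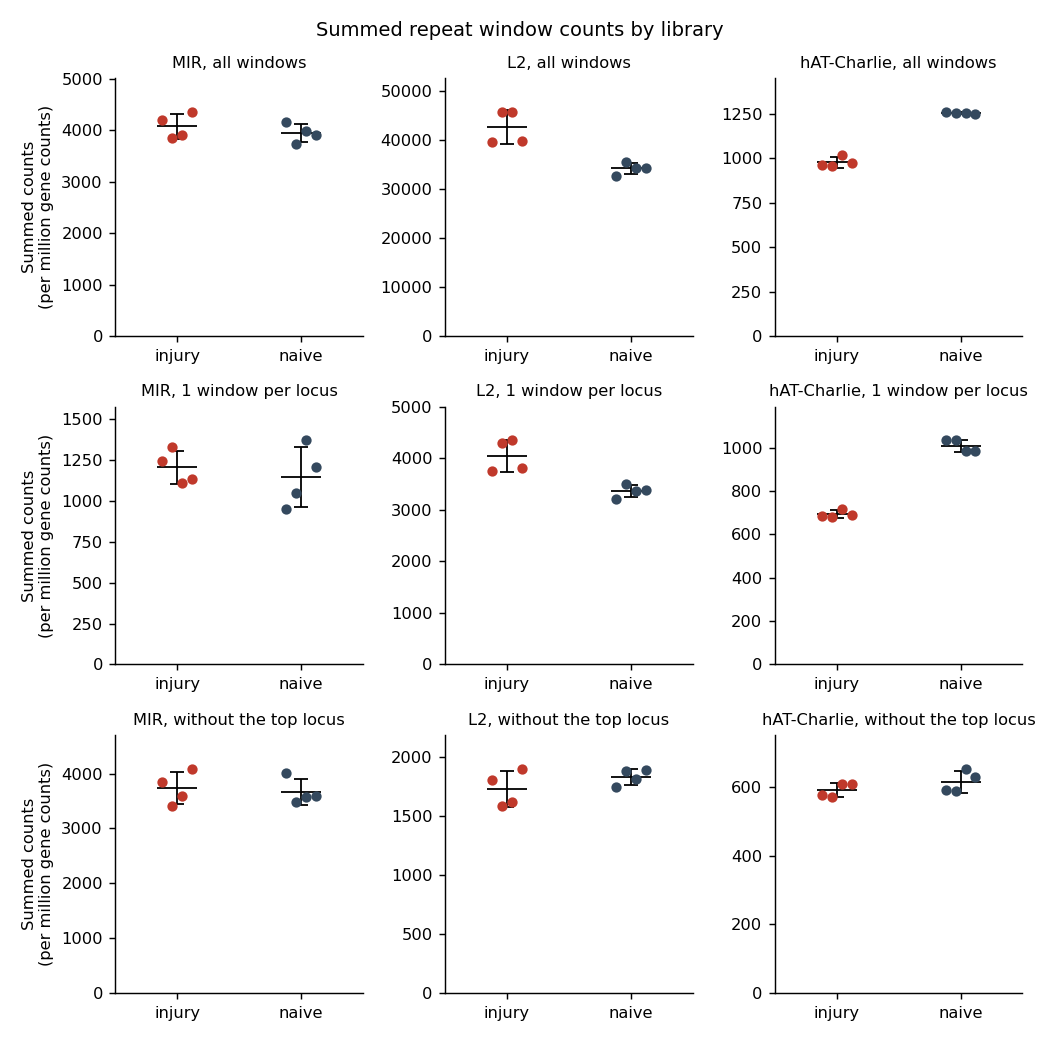
Points give the summed counts of MIR, L2 and hAT-Charlie windows in each library, in CPM of gene counts, with black bars for mean and SD (n = 4 per group) and injury left of naive. The upper and middle rows, over all windows and over 1 window per locus, show L2 higher and hAT-Charlie lower in injury, and the lower row, without the locus with most counts, shows overlapping groups in all 3 classes.

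Window by window, edgeR's quasi-likelihood test with Benjamini-Hochberg adjustment over all 33851 windows tested called 36.4% higher and 2.70% lower after injury (adjusted p under 0.05). Among members that passed the filter on low counts, 8 of 100 MIR windows were called higher and 1 lower, 15 of 65 L2 windows higher and 2 lower, and 2 of 96 hAT-Charlie windows higher and 13 lower. Of the 15 L2 windows, 12 were the overlapping windows of the Tubb5 locus. With 1 window per locus, 31.5% of all 24952 loci tested were called higher and 2.77% lower. The calls were then 6 higher and 1 lower of 65 MIR loci, 4 higher and 2 lower of 38 L2 loci, and 2 higher and 9 lower of 57 hAT-Charlie loci. For each old class the share called higher (9.23%, 10.5% and 3.51%) was below that of all loci. The share called lower was 1.54% for MIR, below that of all loci, and 5.26% for L2 and 15.8% for hAT-Charlie, above it. B2 made up 6508 of the 7872 higher calls over all loci, so the share of all loci is mostly that of B2. For L1 loci 3.91% were called higher and 3.91% lower, and for B2 loci 0.168% were called lower.

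The median locus changed by 0.00 on the log2 scale for MIR, by −0.16 for L2 and by −0.30 for hAT-Charlie. B2 loci had a median of 1.24, with 6508 of 11884 called higher and 20 lower, Alu loci a median of 0.54, and L1 loci, a further LINE class, a median of −0.01. How many members were called in each direction rested on the scaling. Called loci kept the sign of their change in every alternative, except those in Tubb5, Slit1 and Shisa4, all described below. TMM factors computed over the window table, which B2 dominates, moved the median of all windows by −0.60, and the calls were then 4 higher and 36 lower for MIR, 1 higher and 26 lower for L2 and 0 higher and 30 lower for hAT-Charlie, so that the share of higher calls was 10%, 3.7% and 0% in place of 88.9%, 88.2% and 13.3%. TMM factors of the gene table moved it by 0.07 and gave 18 higher and 8 lower hAT-Charlie windows (69.2% higher). The windows gained by hAT-Charlie were the 12 of a locus in the 3′ UTR of Bdh1, an enzyme of ketone body metabolism, and 4 of a locus with no gene. The Bdh1 locus had 15.8, 14.8, 17.6 and 13.2 CPM in injury 1 to 4, against 8.63, 8.93, 12.3 and 13.9 CPM in naive 1 to 4, and was not called with library totals (log2 0.49, SE 0.20, edgeR adjusted p = 0.0761). Without naive 4, 9 of its windows and 2 further windows in no gene were called as well, which gave 13 hAT-Charlie windows called higher.

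**Figure D3:**
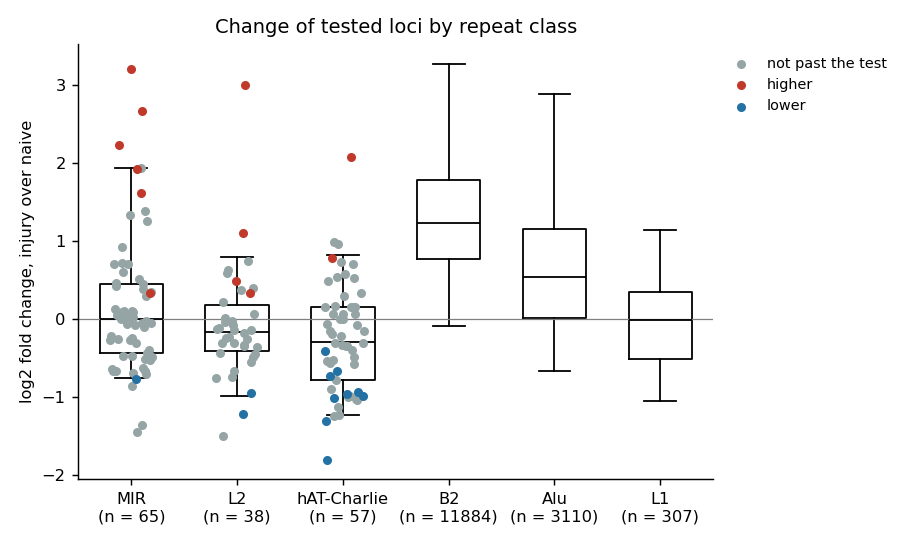
Each point is the log2 fold change, injury over naive, of a tested MIR, L2 or hAT-Charlie locus, coloured by its call, and boxes give the median, quartiles and 5th to 95th percentiles for these classes and for B2, Alu and L1. The old classes centre on 0.00, −0.16 and −0.30, below the B2 median of 1.24.

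The 4 MIR loci with the smallest p among those called higher lay in or beside Nkain1, 2310034G01Rik, Draxin and Chl1. Nkain1, a membrane protein that binds the sodium pump, had a MIR window within 1000 bases past its annotated 3′ end (chr4:130531362-130531387, minus strand), with 5.15, 6.46, 6.69 and 6.59 CPM in injury 1 to 4, against 1.49, 1.98, 0.745 and 1.04 CPM in naive 1 to 4. The groups did not overlap, and the log2 fold change was 2.23 (SE 0.31, edgeR adjusted p = 0.000291). Draxin, a secreted axon guidance protein, had a 3′ UTR window (chr4:148100654-148100679, minus) with counts of 23, 50, 47 and 29 in injury 1 to 4, against 7, 4, 3 and 0 in naive 1 to 4. Its log2 fold change was 3.21 (SE 0.67, edgeR adjusted p = 0.0035), on few naive counts. Chl1, a neural cell adhesion molecule of the L1 family, had an intronic window (chr6:103684417-103684442, plus) with counts of 37, 56, 49 and 34 in injury 1 to 4, against 10, 19, 12 and 10 in naive 1 to 4. It rose by 1.62 (SE 0.36, edgeR adjusted p = 0.00488), with no overlap. The window held 0.255% ± 0.0357 of the Chl1 gene count in injury and 0.289% ± 0.0998 in naive ganglia. The window in the 3′ UTR of 2310034G01Rik, a gene of no known role here (chr19:46348211-46348236, minus), had 5.23, 7.36, 3.62 and 4.11 CPM in injury 1 to 4, against 0.434, 1.5, 0.573 and 0.679 CPM in naive 1 to 4, a log2 fold change of 2.67 (SE 0.42, edgeR adjusted p = 0.000602).

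The only MIR locus called lower was in the 3′ UTR of Klhdc8b, a kelch-domain protein (chr9:108447649-108447674, minus). It had 21.7, 19.3, 17.9 and 23.7 CPM in injury 1 to 4, against 33.4, 35.0, 37.0 and 35.0 CPM in naive 1 to 4, with no overlap (log2 −0.77, SE 0.13, edgeR adjusted p = 0.00119). Further MIR loci called higher were in the 3′ UTRs of Avpr1a, a vasopressin receptor (log2 1.92, SE 0.51, edgeR adjusted p = 0.0123), and Shisa4, a transmembrane adaptor (log2 0.33, SE 0.12, edgeR adjusted p = 0.0492). The Shisa4 call was kept in 3 of 16 alternatives, with adjusted p up to 0.221 and a log2 fold change of −0.25 under TMM factors over the window table, and the Avpr1a call in 14 of 16.

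The MIR loci with most counts did not pass the test. The largest was near the 3′ end of Meg3, a maternally expressed long noncoding RNA (chr12:109571668-109571693, plus), with 366, 433, 318 and 269 CPM in injury 1 to 4, against 158, 255, 405 and 310 CPM in naive 1 to 4. The groups overlapped, with naive 1 lowest and injury 2 highest (log2 0.30, SE 0.25, edgeR adjusted p = 0.387). A second MIR window of Meg3 (chr12:109545276-109545301, plus) lay in or shortly past Mir1906-1 and Gm27300 as well. This window averaged 231 ± 57.3 CPM in injury and 242 ± 94.7 CPM in naive ganglia (log2 −0.07, edgeR adjusted p = 0.860). The Usp12 locus, in the 3′ UTR of a deubiquitinase (15 windows, largest chr5:146734840-146734865, minus), had 156, 130, 145 and 168 CPM in injury 1 to 4, against 168, 138, 134 and 139 CPM in naive 1 to 4 (log2 0.05, SE 0.12, edgeR adjusted p = 0.788). A MIR window antisense to 6530403H02Rik (chr3:120693556-120693581, plus) had 154, 128, 144 and 168 CPM in injury 1 to 4, against 168, 135, 132 and 138 CPM in naive 1 to 4. Its counts were within 5% of those of the Usp12 window in every library, so both windows may hold the same reads. This was found for these 2 of 17 MIR loci with at least 500 counts, and for none of 21 L2 and 23 hAT-Charlie loci. The treatment of reads with several mapping positions is not stated in the labels or files.

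Among L2 loci, the one in the 3′ UTR of Tubb5, a beta tubulin that builds microtubules, carried the class (12 windows, largest chr17:35834806-35834831, minus). That window had 3150, 3680, 3680 and 3170 CPM in injury 1 to 4, against 2580, 2800, 2710 and 2700 CPM in naive 1 to 4. The groups did not overlap, and the log2 fold change was 0.34 (SE 0.09, edgeR adjusted p = 0.0156). The printed L2 run in this window held AATAAA, and the window's count was 99.2% ± 0.0915 of the Tubb5 gene count in injury and 98.9% ± 0.204 in naive ganglia, although no annotated transcript end lay within 100 bases. With TMM factors over the window table its log2 fold change was −0.23.

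Trim47, a tripartite motif ubiquitin ligase, had a 3′ UTR L2 window (chr11:116105763-116105788, minus) with 8.83, 12, 13.9 and 11.7 CPM in injury 1 to 4, against 5.02, 6.38, 5.21 and 5.07 CPM in naive 1 to 4. All injury libraries were above all naive libraries (log2 1.10, SE 0.20, edgeR adjusted p = 0.00156). Slit1, a secreted ligand of Robo receptors in axon guidance, had a 3′ UTR window (chr19:41600277-41600302, minus) with 43.3, 57.3, 62.4 and 45.8 CPM in injury 1 to 4, against 37.8, 45.9, 34.1 and 31.0 CPM in naive 1 to 4. The groups overlapped by a small margin, each pair was higher in injury, and the log2 fold change was 0.49 (SE 0.17, edgeR adjusted p = 0.0408). That call was lost in 9 of 16 alternatives, among them leaving out naive 1, 3 or 4 or injury 2 or 3. An intronic window of Nkiras2, a Ras-like inhibitor of NF-kappaB signalling (chr11:100621220-100621245, plus), had counts of 16, 22, 16 and 13 in injury 1 to 4, against 0, 0, 4 and 3 in naive 1 to 4. Its log2 fold change of 3.00 (SE 0.82, edgeR adjusted p = 0.0145) rests on 74 counts in all.

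Of the 2 L2 loci called lower, the larger change was in no annotated gene (chr6:125086085-125086110, plus). It had 5.70, 4.14, 5.58 and 6.65 CPM in injury 1 to 4, against 10.8, 13.6, 14 and 13 CPM in naive 1 to 4, with no overlap (log2 −1.22, SE 0.20, edgeR adjusted p = 0.00078). A further locus with no gene fell by 0.95 on the log2 scale (chr3:118385018-118385043, minus, SE 0.33, edgeR adjusted p = 0.0424). Its groups overlapped, naive 2 at 1.69 CPM lay below injury 1, 2 and 4, and 3 of 4 pairs were lower. The call was kept in 5 of 16 alternatives and lost without any single library other than naive 2. Without injury 3, the L2 windows called lower numbered 5.

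Other L2 loci with many counts did not pass the test. Ncdn, a neuronal protein that restrains CaM kinase, had a 3′ UTR window (chr4:126743773-126743798, minus) with 138, 149, 187 and 136 CPM in injury 1 to 4, against 179, 188, 178 and 178 CPM in naive 1 to 4. Injury 3 lay inside the naive range and the other injury libraries below it (log2 −0.24, SE 0.12, edgeR adjusted p = 0.143). Without injury 3 the adjusted p was 0.0169 with a log2 fold change of −0.36. Celf4, an RNA-binding protein of neurons, had a 3′ UTR window (chr18:25479100-25479125, minus) with 98, 48.3, 49.6 and 94.4 CPM in injury 1 to 4, against 90, 93.8, 88.8 and 99.2 CPM in naive 1 to 4. Injury 2 and 3, the libraries with fewer counts at A+T-rich 3′ ends, were low, and the other injury libraries lay within the naive range (log2 −0.36, SE 0.23, edgeR adjusted p = 0.255). Without naive 2, injury 2 and injury 3 together it was 0.05.

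The hAT-Charlie class fell with Tmem233, a transmembrane protein of sensory neurons. Its 3′ UTR window (chr5:116039858-116039883, minus) had 381, 383, 407 and 362 CPM in injury 1 to 4, against 667, 662, 597 and 616 CPM in naive 1 to 4. The groups lay far apart, and the log2 fold change was −0.73 (SE 0.09, edgeR adjusted p = 0.000163), past the threshold in 16 of 16 alternatives. A pair of windows antisense to St6galnac3, a sialyltransferase gene, fell alike. The window at chr3:153594536-153594561 (plus) had 9.39, 6.25, 6.64 and 9.43 CPM in injury 1 to 4, against 16.3, 14.9, 17.1 and 15.8 CPM in naive 1 to 4 (log2 −1.01, SE 0.19, edgeR adjusted p = 0.00177). The window at chr3:153594990-153595015 (plus) had 18.5, 10.7, 15.7 and 15.1 CPM in injury 1 to 4, against 26.8, 32.8, 26.9 and 27.7 CPM in naive 1 to 4 (log2 −0.93, SE 0.18, edgeR adjusted p = 0.00224). Neither showed overlap between the groups.

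A window in an intron of Gm37711 (chr4:132107682-132107707, minus), a gene of no known role here, had 1.93, 2.00, 1.49 and 2.78 CPM in injury 1 to 4, against 4.63, 6.13, 5.15 and 4.30 CPM in naive 1 to 4 (log2 −1.30, SE 0.26, edgeR adjusted p = 0.00268). Tomm20, the import receptor of the mitochondrial outer membrane, had a 3′ UTR window (chr8:126930685-126930710, minus) with 24.4, 26.5, 27.8 and 29.8 CPM in injury 1 to 4, against 38.0, 34.5, 38.6 and 32.8 CPM in naive 1 to 4. The groups did not overlap (log2 −0.41, SE 0.13, edgeR adjusted p = 0.0258), but the call was kept in 8 of 16 alternatives and lost with the replicate block and without naive 1, naive 3, injury 1 or injury 2. Frmpd4, a postsynaptic scaffold protein, had a 3′ UTR locus called lower (log2 −1.80, SE 0.49, edgeR adjusted p = 0.0142). Tmem72, a transmembrane protein, had another (log2 −0.96, SE 0.35, edgeR adjusted p = 0.0486). A further locus called lower lay in or shortly past both Fam19a3 and Gm43584 (log2 −0.67, edgeR adjusted p = 0.0198). The last was in no gene at chr18:62502984-62503009 (plus, log2 −0.98, edgeR adjusted p = 0.00511). The Tmem72 groups overlapped, with 4.11 CPM in injury 4 against 3.52 CPM in naive 1, and its call was kept in 4 of 16 alternatives, with adjusted p up to 0.371. The count of 13 windows called lower was 7 without naive 3 and 8 without naive 1 or injury 2.

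A pair of hAT-Charlie loci rose. The window in no gene at chr17:34486698-34486723 (minus) had counts of 52, 46, 39 and 32 in injury 1 to 4, against 12, 4, 1 and 20 in naive 1 to 4 (log2 2.08, SE 0.60, edgeR adjusted p = 0.0188). The intronic window of Il31ra, a receptor subunit for an itch cytokine (chr13:112521218-112521243, minus), had 10.8, 9.60, 9.25 and 15.0 CPM in injury 1 to 4, against 8.15, 6.47, 5.10 and 6.16 CPM in naive 1 to 4. The groups did not overlap (log2 0.78, SE 0.23, edgeR adjusted p = 0.0189), and the call was lost without naive 3 or injury 4. A window in an exon of Ppp1ccb, a transcribed processed pseudogene (chr7:119742184-119742209, plus), averaged 63.6 ± 6.07 CPM in injury and 67.1 ± 4.45 CPM in naive ganglia (log2 −0.08, edgeR adjusted p = 0.634). No locus elsewhere had counts within 5% of its own in every library, and whether its reads are shared with other gene copies was not tested.

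**Figure D4:**
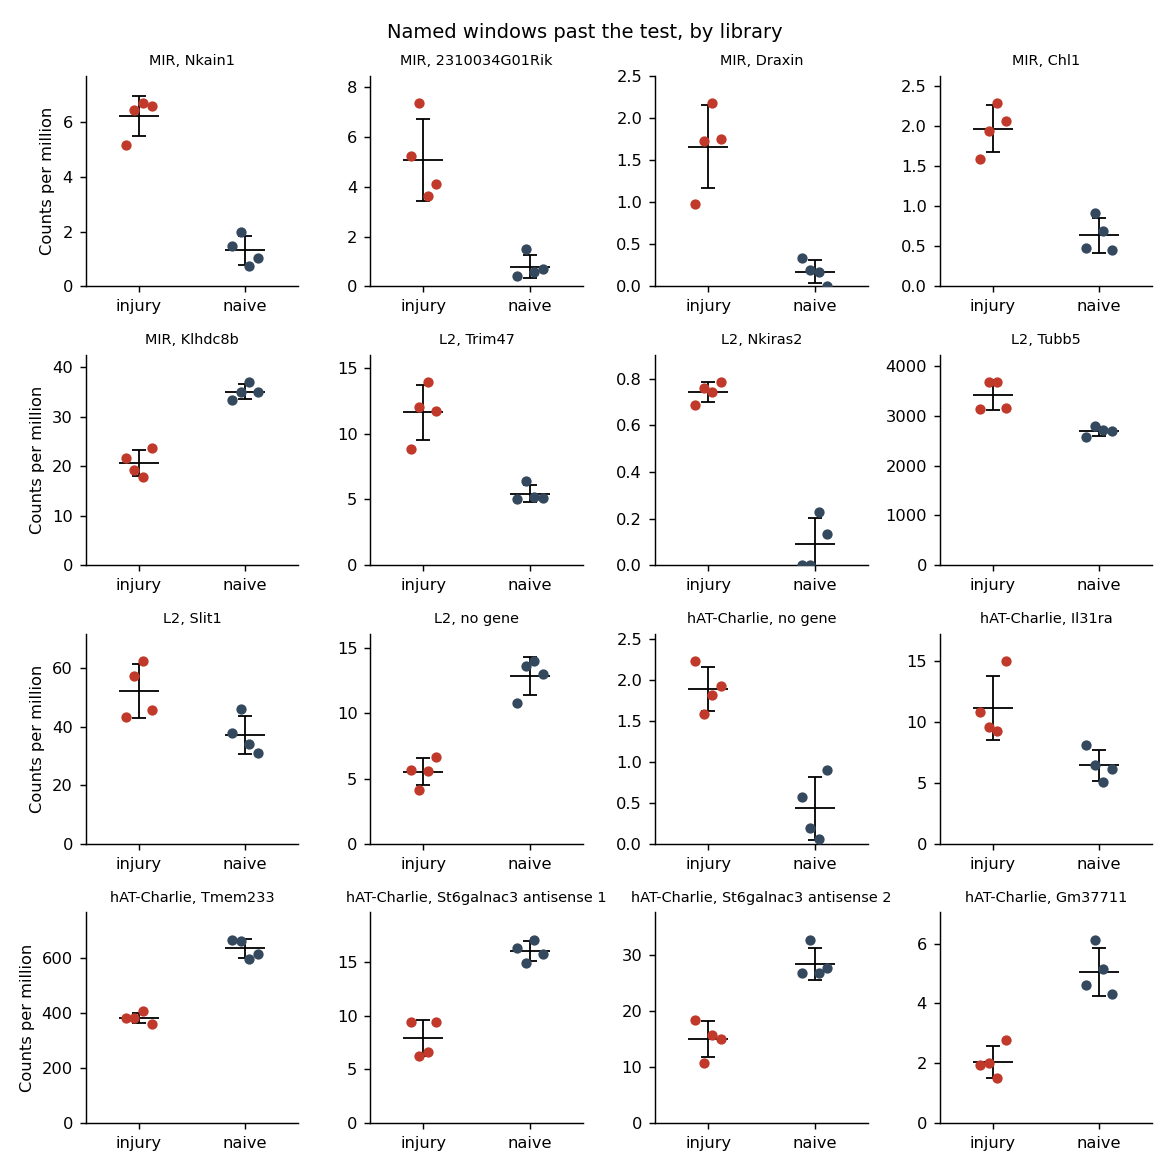
Each panel gives CPM in the 8 libraries for a window named for its call (up to 4 higher and 4 lower per class), with injury left of naive and black bars for mean and SD (n = 4 each). The Tubb5 panel shows 3150 to 3680 CPM in injury against 2580 to 2800 CPM in naive and the Tmem233 panel shows 362 to 407 CPM in injury against 597 to 667 CPM in naive.

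Member windows were then set beside the gene that holds them on the same strand. Of the tested loci, 111 had exactly 1 host gene that was also tested (7.99% of all 13770 genes tested were called higher and 11.5% lower). In 21 loci the host was called higher, and 10 of these loci were called higher and 0 lower. In 16 the host was called lower, and 4 of these loci were called lower and 0 higher. In the remaining 74 the host was not called, and 1 locus was called higher and 1 lower. Across loci, which are not independent and share their reads with the gene count, the log2 fold changes of window and gene had Pearson's r of 0.87 for MIR (n = 43), 0.54 for L2 (n = 32) and 0.56 for hAT-Charlie (n = 36). The median difference, window minus gene, was 0.01, 0.00 and −0.15 on the log2 scale. For 2204 B2 loci with a tested host, r was 0.01 and the median difference 1.13.

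Position went with this contrast. B2 loci in introns had a median log2 fold change of 1.16 (n = 2803 tested), and those in 3′ UTRs had −0.01 (n = 112), beside 0.07 for MIR (n = 24), −0.13 for L2 (n = 25) and −0.34 for hAT-Charlie (n = 25) in 3′ UTRs. Intronic loci of the old classes had medians of −0.27 for MIR (n = 12), −0.35 for L2 (n = 5) and −0.58 for hAT-Charlie (n = 9). These medians are descriptions, and the difference between positions was not tested.

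**Figure D5:**
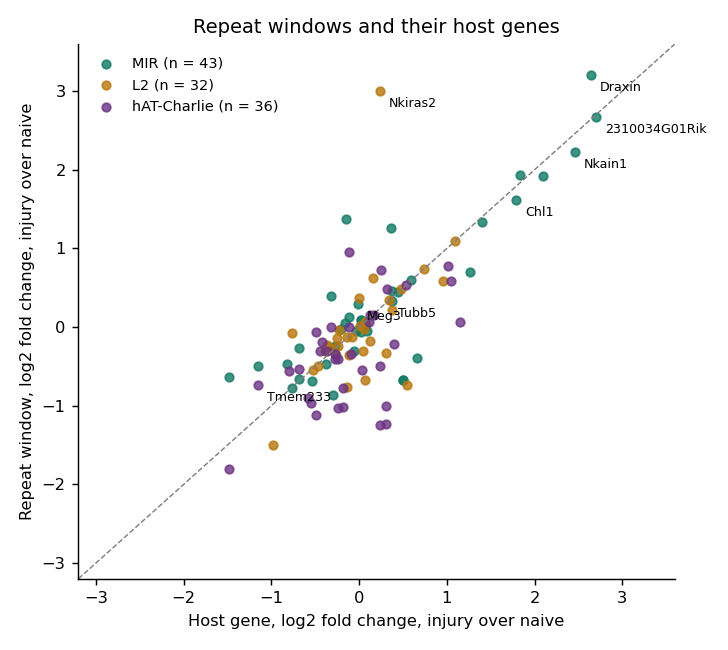
The log2 fold change, injury over naive, of 111 MIR, L2 and hAT-Charlie loci is plotted against that of their host gene, with the line of equality dashed. Most points lie near the line, among them 2310034G01Rik and Chl1, and the Nkiras2 window at 3.00 stands above its gene at 0.24.

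The share of the gene count held by a 3′ UTR window varied widely. It was between 90% and 110% in 6 MIR, 8 L2 and 1 hAT-Charlie loci and under 10% in 4, 6 and 9. In the 3′ UTR loci the median window count was 76.6% of the gene count for MIR (22 loci), 63.0% for L2 (25 loci) and 18.4% for hAT-Charlie (25 loci). The windows in Klhdc8b, Ncdn, Trim47 and Slit1 held 99.8% ± 0.290, 99.5% ± 0.394, 100% ± 0.336 and 98.3% ± 0.643 of the gene count in injury. In naive ganglia the same windows held 99.3% ± 0.956, 99.6% ± 0.180, 100% ± 0 and 97.9% ± 0.455. Nearly all counts of these 4 genes thus lay in the repeat window in both groups.

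A test of each window with its host gene's count as the offset asked which windows moved apart from their gene. Over 5455 windows with a host of at least 100 mean counts, 23.8% were called higher and 1.01% lower than their gene (edgeR quasi-likelihood test, adjusted p under 0.05). Members called were 1 of 59 MIR windows higher, 1 of 52 L2 windows higher and 5 lower, and 1 of 60 hAT-Charlie windows lower, beside 1163 higher and 12 lower of 2681 B2 windows. Windows with nearly all of their gene's count, as in Tubb5, Ncdn, Trim47 and Klhdc8b, could hardly differ from that gene. The 12 overlapping Tubb5 windows are among the L2 windows tested. The low counts of calls for members are thus in part fixed by the test. The last MIR window of Meg3 took 25.1%, 25.6%, 26.5% and 23.4% of the Meg3 count in injury 1 to 4, against 18.5%, 21.9%, 20.9% and 19.8% in naive 1 to 4. Every injury share was above every naive share, while the Meg3 gene itself averaged 1375 ± 252 CPM in injury and 1382 ± 473 CPM in naive ganglia. Relative to the gene the window was higher by 0.31 on the log2 scale (SE 0.06, edgeR adjusted p = 0.00772), and it kept its call without each library in turn.

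The 5 L2 windows lower than their gene were those of a locus in Rundc3a, a RUN-domain protein of neurons that binds Rap GTPases. Its largest window (chr11:102401715-102401740, plus) had 122, 150, 144 and 143 CPM in injury 1 to 4, against 111, 122, 125 and 121 CPM in naive 1 to 4, and was not called by itself (log2 0.22, SE 0.11, edgeR adjusted p = 0.127). The gene rose by 0.38 (SE 0.09, edgeR adjusted p = 0.00917). The window took 59.6%, 58.5%, 62.6% and 60.1% of the gene count in injury 1 to 4, against 69.1%, 65.7%, 66.7% and 67.9% in naive 1 to 4, with no overlap. Relative to the gene it was lower by −0.16 (SE 0.04, edgeR adjusted p = 0.0289). That call, and the call of the Nkiras2 window (2.81 relative to its gene, SE 0.82, edgeR adjusted p = 0.0369), were lost with the replicate block, which left 0 L2 calls, and no L2 window was called lower without naive 1, 3 or 4 or injury 1, 2 or 4. The hAT-Charlie window was in the 3′ UTR of Ccdc112, a coiled-coil protein (log2 −0.62 relative to its gene, SE 0.17, edgeR adjusted p = 0.0291), and its call depended on naive 1, naive 3, injury 1, injury 2 and injury 4, since none was made when any of these was left out.

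In some loci the window exceeded the gene. The Tmem233 window held 1380%, 1790%, 3290% and 1620% of the Tmem233 gene count in injury 1 to 4, against 1280%, 1460%, 1360% and 1410% in naive 1 to 4. The gene averaged 20.9 ± 6.32 CPM in injury and 46.36 ± 3.94 CPM in naive ganglia (log2 −1.15, SE 0.19, edgeR adjusted p = 0.00136), so gene and window fell together, and the window did not differ from its gene past the test (0.55, SE 0.25, edgeR adjusted p = 0.147). The Usp12 window held 1650% ± 477 of the gene count in injury and 1380% ± 271 in naive ganglia. Reads of these windows were thus counted in the window table and for the most part not under these genes, and why was not tested.

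The sum of each old class was finally set against the B2 sum, which does not depend on the scaling of the libraries. B2 windows summed to 349213 to 429021 CPM in injury and 187313 to 218038 CPM in naive ganglia. As a percent of the B2 sum, MIR was 1.04% ± 0.051 in injury and 1.96% ± 0.213 in naive, L2 was 11% ± 2.03 in injury and 16.9% ± 0.708 in naive, and hAT-Charlie was 0.251% ± 0.0287 in injury and 0.621% ± 0.0445 in naive ganglia (SD, n = 4 each). Log2 differences were −0.91, −0.63 and −1.31. None of the 3 overlapped between groups, and each exact permutation test gave p = 0.0286, also after adjustment over the classes. With pairs the exact p was 0.125, the smallest that 4 pairs allow. Overlapping windows count a read repeatedly in these sums. With 1 window per locus, L2 was 2.21% ± 0.38 of the B2 sum in injury and 3.72% ± 0.153 in naive ganglia. The log2 differences were then −0.95 for MIR, −0.77 for L2 and −1.57 for hAT-Charlie. Over all windows, without the locus with most counts of each class, they were −0.93, −1.04 and −1.01. L2 without its Tubb5 locus was 0.44% in injury and 0.908% in naive ganglia. The B2 sum itself differed by 0.95 on the log2 scale, with no overlap between groups.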

How the data were processed

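Dissociated L4-L6 ganglia gave 8 libraries, 4 per group. The authors deposited raw read counts per gene and per repeat window. The submitters' processing notes name bcl2fastq 2.17, STAR and HTSeq and the builds GRCm38 and mm10. No version of STAR or HTSeq is stated there, nor is the choice of windows, the coordinate base or the handling of reads with several positions. Columns left out numbered 0.

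Members and gene lists were chosen with earlier results of these data known. Windows and genes were tested with edgeR 4.0.16 in R 4.3.3 (filterByExpr, library totals of the gene table with no further factor, quasi-likelihood test, Benjamini-Hochberg adjustment over all windows or genes). DESeq2 1.42.0 was an alternative. Standard errors are the log2 fold change over the square root of the F statistic and are approximate. Intervals and floors were not needed, since values are replicate means. Positions come from GENCODE vM21, a host being the single sense gene, up to 1000 bases past its end. Named windows are, per class, the 4 loci with most counts and up to 4 called higher and 4 called lower with the smallest p and 1 sign in all 4 pairs. Other called loci and Bdh1 were named after their values were seen.

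The design text says that each animal gave injured and naive ganglia, so equal numbers were taken as pairs. Deviations of same-numbered libraries from their group means correlated by 0.10, 0.26, −0.08 and 0.14 over windows. On simulated counts with the windows' means and library sizes (33851 windows), the fit recovered 47.8% of 4-fold and 10.3% of 2-fold changes. Few of the simulated windows were given a change, against 36.4% called higher in the data, so these shares need not hold for the data.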

Additional observations from a re-analysis of the deposited data

Results flagged for a closer look

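Values per library of 62 groups of 4 were looked at, and in 6 a library stood apart from the other 3 by more than Dixon's 95% limit. Chance flags about 1 in 20 groups.

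Naive 1 had 168.4 CPM in the MIR window of Usp12, with 134 to 139 CPM in the other naive libraries, and 168.3 CPM in the MIR window antisense to 6530403H02Rik on chromosome 3, with 132 to 138 CPM in the others. These windows hold near-identical counts and so are a single observation. Injury 1 had 5.15 CPM in the MIR window of Nkain1, with 6.46 to 6.69 CPM in the other injury libraries. Naive 2 had 187.7 CPM in the L2 window of Ncdn, with 178 to 179 CPM in the others, 6.38 CPM in the L2 window of Trim47, with 5.02 to 5.21 CPM in the others, and 32.8 CPM in the hAT-Charlie window at chr3:153594990-153595015, with 26.8 to 27.7 CPM in the others.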

How the results depend on the processing

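The alternatives were TMM factors from the gene or the window table, no filter, a minimum of 40 counts, 1 window per locus, DESeq2, the replicate block, and fewer libraries. Leaving out a class's top locus and keeping only windows with no gene were added after the data were seen. With TMM over the window table the calls were 4 higher and 36 lower for MIR, 1 and 26 for L2, and 0 and 30 for hAT-Charlie, and log2 fold changes turned to −0.25 (Meg3), −0.54 (Usp12 and its chromosome 3 counterpart), −0.23 (Tubb5), −0.35 (Rundc3a) and −0.08 (Slit1). With TMM of the gene table, hAT-Charlie had 18 higher and 8 lower, L2 had 1 lower, the second Meg3 window was at 0.01 and the Ppp1ccb window at 0.00.

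One window per locus left 4 L2 windows higher, and leaving out the Tubb5 locus left 3. No filter left 8 hAT-Charlie windows lower, a minimum of 40 counts left 1 L2 window lower, and DESeq2 gave 2 MIR windows lower. Windows with no gene held 0 MIR calls in either direction, 0 L2 calls higher, and 1 higher and 1 lower for hAT-Charlie. With the replicate block 1 L2 window was lower, no L2 window differed from its host (0 higher, 0 lower), and the exact p of the sums, adjusted over the 3 classes, was 0.188 (L2 0.32, hAT-Charlie −0.36) and of the ratios to B2 0.125 (−0.91, −0.63 and −1.31). It changed no other class count past 1.5 times. With a host count of at least 400, 0 hAT-Charlie windows were lower than their host.

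Without naive 2, injury 2 and injury 3 together, 5 MIR windows were higher and 2 lower, 5 L2 windows lower, and 1 hAT-Charlie window higher and 8 lower. The sums were then 0.24 (L2) and −0.38 (hAT-Charlie), adjusted p = 0.150, and the ratios −1.03, −0.88 and −1.49, adjusted p = 0.100 by exact permutation, the smallest so few libraries allow, and Celf4 was at 0.05. Without the 10 windows with most counts the sums were 0.24 for L2 (exact permutation, adjusted p = 0.0857) and −0.08 for hAT-Charlie (0.343), and without the top locus −0.09 and −0.06 (0.429). The 10 L2 windows were all from the Tubb5 locus, which has 12, so windows of Tubb5 remained in the L2 sum of 0.24.

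Leaving out each library gave 7 to 9 MIR windows higher and 1 lower, 14 to 15 L2 higher and 1 to 5 lower, and 1 to 13 hAT-Charlie higher and 7 to 15 lower. Relative to the host, L2 had 0 to 1 higher and 0 to 6 lower, hAT-Charlie 0 higher and 0 to 2 lower, and MIR 1 higher and 0 lower. Genes called were 884 to 1077 higher and 981 to 1611 lower. Sums ranged from 0.28 to 0.35 (L2), −0.38 to −0.35 (hAT-Charlie) and 0.01 to 0.07 (MIR), and ratios from −0.97 to −0.84 (MIR), −0.72 to −0.56 (L2) and −1.36 to −1.26 (hAT-Charlie). The second Meg3 window ranged from −0.26 to 0.16 (0.16 without naive 3, 0.02 without naive 4, 0.05 without injury 3, 0.00 without injury 4), and Usp12 and its counterpart from −0.01 (without injury 4) to 0.13 and 0.14. Unless stated, the cause was not tested. In the simulation a 2-fold change was recovered in 10.3% of the windows given one. That share was not split by depth, and few windows were changed there, so it need not hold for these data. Windows that were not called can still have changed.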
